A study of Oryza sativa with 3 samples.

Results

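The tRNA-derived fragments of bicellular pollen (BCP), the stage at which the rice male gametophyte holds a vegetative and a generative cell, were described within their own library. Every listed fragment was a member, which gave 14717 distinct sequences with 4958412 reads, of 18424 distinct sequences over the 3 lists of the series. The series holds 1 small RNA library for each of 3 stages, bicellular pollen, tricellular pollen (TCP) and the uninucleate microspore (UNM), all from pollen tissue of field-grown Oryza sativa cultivar Guichao No.2, for which the labels name no genetic change and no added agent. The spores were separated on a sucrose gradient, total RNA was extracted with a column kit, and the BCP library is labelled as small RNAs of 13 to 41 nt. Gradient fractions are whole spores, so fragments of the vegetative and the generative cell cannot be told apart, and a list of tRNA fragments gives no marker genes by which to check the stage. With 1 library there is no replicate check, and the intervals below (exact Clopper-Pearson, 95%) cover counting error only.

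A tRNA folds into a D arm, an anticodon arm and a T arm, with its 5′ end paired to its 3′ end and a CCA tail added behind it. Ribonucleases that cut in the anticodon loop leave long 5′ and 3′ fragments, and cuts in the D loop leave short 5′ fragments. In Arabidopsis thaliana, ribonucleases of the T2 family make such fragments, and short 5′ fragments are known from mature pollen.

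Most reads lay on sets of fragments with 1 common first base and different last bases. Such a nested series was built from all exact prefixes of a trunk, the path of most reads that follows a shared start of 13 bases. The leading series of the 12 amino acids with at least 1% of reads are shown first, because most of the 3′ ends described below lie on them. Each is written 5′ to 3′ in DNA letters as far as at least 10 reads reached, with the bases of the anticodon that were covered in capitals.
Asp GTC 1: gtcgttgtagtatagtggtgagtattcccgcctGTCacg
Glu CTC 1: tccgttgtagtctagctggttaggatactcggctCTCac
Ala TGC 1: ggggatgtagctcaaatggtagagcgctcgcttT
Gly TCC 1: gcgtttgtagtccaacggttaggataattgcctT
His GTG 1: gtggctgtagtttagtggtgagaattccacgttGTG
Leu CAA 1: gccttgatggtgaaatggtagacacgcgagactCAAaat
Ser TGA 1: ggatggatgtctgagcggttgaaa
Phe GAA 1: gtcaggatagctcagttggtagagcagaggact
Met CAT 1: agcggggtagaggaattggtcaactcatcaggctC
Pro TGG 1: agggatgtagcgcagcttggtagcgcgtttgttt
Tyr GTA 1: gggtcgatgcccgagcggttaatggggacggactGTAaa
Gln CTG 1: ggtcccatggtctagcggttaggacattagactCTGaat

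Further series carry single results below, chosen after their values were seen, and are shown for comparison with the leading ones. They are a Gly, a His, 2 Ala and 2 Ser series that begin at the 5′ end, and a Phe series that lies on the 3′ side of its tRNA.
Ala CGC 2: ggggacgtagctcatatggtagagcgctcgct
Ala CGC 3: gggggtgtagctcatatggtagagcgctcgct
Gly TCC 2: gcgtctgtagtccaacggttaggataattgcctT
His GTG 2: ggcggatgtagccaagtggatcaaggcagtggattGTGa
Ser TGA 2: gtcgatatgtccgagtggttaagg
Ser GCT 3: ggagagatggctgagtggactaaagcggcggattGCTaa
Phe GAA 2: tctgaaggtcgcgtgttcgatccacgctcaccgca

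The list was dominated by few sequences. The 9 most abundant sequences held 50% of the reads and 189 held 90%, while 5508 sequences (37.4%) had 1 read each and together 0.111% of the reads. Sequences that were also listed elsewhere in the series carried nearly all reads. Those shared with the tricellular pollen list were 41.9% of the sequences and 98.7% of the reads, and those shared with the microspore list were 26.6% of the sequences and 97.1% of the reads. The 7324 sequences in neither other list (49.8% of sequences) held 1.08% of the reads. The tricellular pollen list has 8633 sequences and the microspore list 5477, fewer than the 14717 of bicellular pollen, which limits the share of sequences that can overlap. Neither other list holds a sequence of 39 nt. The 286 sequences of this length, with 28672 of the 53632 reads in neither other list, could therefore not be shared. The depth set a limit of 6.05e-05% of reads for a sequence with a count of 0 (3 counts), and no share of all reads had an interval wider than 0.044 percentage points to either side.

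Long fragments, of 30 nt or more, made up 50.8% of the reads (interval 50.7% to 50.8%) and short fragments, of 20 nt or less, 41.3% (41.3% to 41.4%). The lengths between them, 21 to 29 nt, held only 7.89% of the reads although they held 32.0% of the distinct sequences. There were 2923 long sequences, with a median of 3 reads and a mean of 862, and 7079 short sequences, with a median of 2 and a mean of 289. Within each class most reads therefore lay on a small number of sequences. Little of the library lay between the classes, although tRNA-Pro had 38.1% and tRNA-Gly 35.5% of their own reads at 21 to 29 nt.

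The 3 size classes differed in their leading tRNA. Fragments of tRNA-Asp supplied 53.1% of the long reads, ahead of tRNA-Glu with 12.3%, tRNA-His with 9.25% and tRNA-Gly with 9.04%. Fragments of tRNA-Ala led the short reads with 30.5%, followed by tRNA-Glu with 21.5%, tRNA-Asp with 21.3% and tRNA-Ser with 10.2%, while tRNA-Ala supplied 0.535% of the long reads. Fragments of tRNA-Gly led the middle lengths with 39.04% of those reads.

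Across all lengths, tRNA-Asp was the source of 36.3% of the reads (interval 36.2% to 36.3%), tRNA-Glu of 16.04%, tRNA-Ala of 13.9%, tRNA-Gly of 8.67%, tRNA-His of 7.55% and tRNA-Ser of 5.71%. The next 6 amino acids, Leu, Pro, Met, Gln, Tyr and Phe, held between 2.27% and 1.20% each. The lowest 3 were Trp with 2041 reads, Ile with 845 and Asn with 611, which was 0.0123% of the reads. The deposited values are reads of fragments, so a low share of an amino acid says nothing about the level of its intact tRNA, which was not measured.

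Of the 20 amino acids, 10 had most of their reads at 30 nt or more, 7 had most at 20 nt or less, and 3 (Pro, Trp and Ile) had most in neither class. Among the amino acids with at least 1% of reads, tRNA-Leu was the most strongly long, with 85.1% of its reads at 30 nt or more (84.9% to 85.3%). For tRNA-Asp this share was 74.3%, for tRNA-Phe 68.0%, for tRNA-His 62.3% and for tRNA-Gly 52.95%. At the other end, 91.0% of tRNA-Ala reads (90.9% to 91.0%) and 73.9% of tRNA-Ser reads were 20 nt or less. Fragments of tRNA-Glu were divided, with 38.8% long and 55.5% short, and so were those of tRNA-Met, with 43.3% long and 50.1% short. Fragments of tRNA-Pro were spread over all 3 classes, with 37.9% long and 24.0% short.

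**Figure D1:**
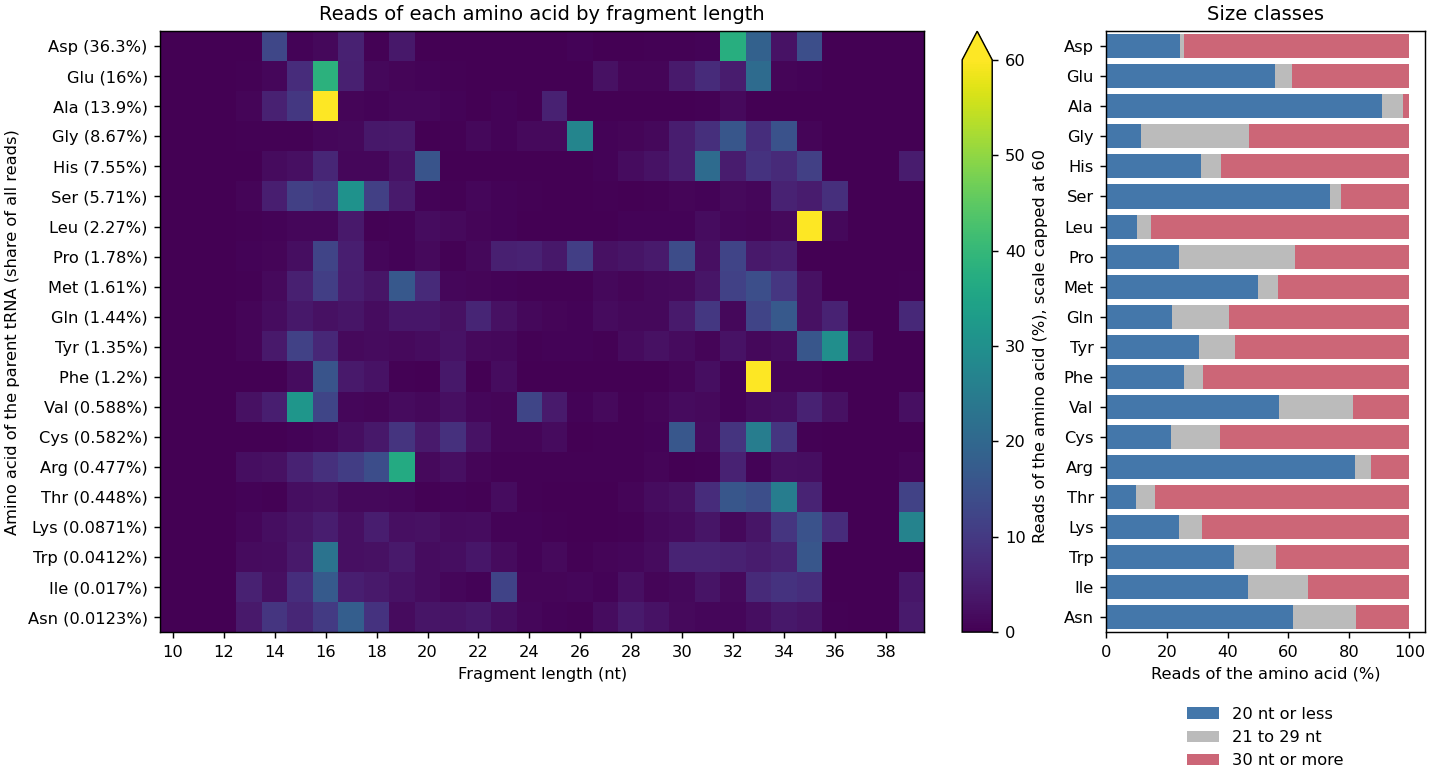
Left, the share of each amino acid's reads (colour, percent, capped at 60) at each fragment length in nt, with amino acids ordered by reads. Right, the same reads as stacked bars of 3 size classes; tRNA-Leu reaches 85.1% at 30 nt or more and tRNA-Ala 91.0% at 20 nt or less.

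Single sequences carried much of this. The 10 most abundant sequences held 51.97% of the reads, and 5 of them were long and 5 short. The first was the 32-nt prefix of Asp GTC 1 with 677135 reads, or 13.7% of the library. It was followed by the 33-nt prefix of the same series with 334009 reads and the 16-nt prefix of Glu CTC 1 with 294518 reads. The remaining ones were the 35-nt Asp prefix with 258308 reads, the 16-nt prefix of Ala TGC 1 with 234952, the 14-nt Asp prefix with 230728, the 16-nt prefix of Ala CGC 2 with 216521, the 33-nt Glu prefix with 158963, the 35-nt prefix of Leu CAA 1 with 86261, and a 17-nt fragment of another Asp series with 85687. All 10 began at the first base of the tRNA by the position rule given with the starts below.

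The 12 leading series held 64.0% of all reads. Nested fragments share their tRNA and their bases, so they are not independent members. The median share of a series' reads at its most frequent 3′ end was 43.5%, from 24.7% in Gln CTG 1 to 96.6% in Leu CAA 1, and in 5 of the 12 a single end held at least 50%. The most frequent end left a fragment of 30 nt or more in 6 series and of 20 nt or less in 5, and in Gly TCC 1 it lay between. Only ends with at least 5% of a series' reads are named.

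Positions were counted from the anticodon, which was located in all 12 by extending the trunk with overlapping listed fragments. A fragment that stops directly 5′ of the anticodon keeps 0 of its bases, and a fragment that stops before T33, the conserved base in front of the anticodon, is at -1. One property of the list bears on every end in the anticodon loop. It holds 268 sequences of 35 nt, 75 of 36 nt, 1 of 37 nt and none of 38 nt, and then 286 of 39 nt, its longest length. For tRNA-Asp there were 12 sequences with 258880 reads at 35 nt, 2 sequences with 2 reads at 36 nt, none at 37 or 38 nt, and 15 with 119 reads at 39 nt. The other lists also thinned out, with at most 1 sequence at 38 nt, none at 39 nt and many at 40 nt (252 in tricellular pollen and 95 in microspores). Whether fragments of 36 to 38 nt were absent from the RNA or from the list was not tested, and whether 39 nt is a fragment end or the end of a read is not given in the sources used here.

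The Asp series, with 1659865 reads, ended at 3 sites in the anticodon loop and at 1 site in the D loop. The prefix of 32 nt, which stops before T33, held 40.8% of its reads (40.7% to 40.9%). The prefix of 33 nt, which stops before the anticodon, held 20.1%, and that of 35 nt, which keeps G and T of the anticodon, held 15.6%. The fourth site gave the 14-nt fragment, with 13.9%. These 4 lengths left few reads for all other lengths of the series, and the 34-nt end between the loop sites fell under the 5% limit.

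The Glu series had 2 ends above 5%. The 16-nt fragment held 58.6% of its 502215 reads and the 33-nt fragment, which stops before T33 as the main Asp fragment does, held 31.7%. The 2 tRNAs of acidic amino acids therefore shared the long site, while 55.5% of all Glu reads and 24.3% of all Asp reads were 20 nt or less.

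The Ala series was almost wholly short. Of the 371538 reads of Ala TGC 1, 63.2% ended at 16 nt, 13.9% at 15 nt, 8.16% at 14 nt and 5.63% at 25 nt. The other Ala series differ from it at single bases, counted from 1 at the 5′ end with the base of Ala TGC 1 first. Ala CGC 2 differs by T6C and A15T and ended at 16 nt in 88.5% of its 244758 reads. Ala CGC 3 differs by A5G and A15T and ended at 16 nt in 65.1% of its 58033 reads, with a second end at 25 nt that held 25.5%. All 3 series thus had the same leading end, and the weight of the 25-nt end differed among them.

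Gly TCC 1 was the series with its leading end at a middle length. The 26-nt fragment, which ends between the D arm and the anticodon arm, held 39.2% of its 166815 reads, and the ends at 32, 33 and 34 nt held 19.3%, 10.8% and 13.8%. Gly TCC 2 differs from it by T5C over their common trunk and had nearly the same reads, 149098. Its ends fell at the same places, with 33.5% at 26 nt and 19.05%, 7.57% and 16.2% at 32, 33 and 34 nt, and it had further ends at 18 and 19 nt with 7.82% and 6.76%.

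Leu CAA 1 and Phe GAA 1 were each cut at nearly 1 place. In Leu CAA 1, 86261 of 89332 reads (96.6%) were 35 nt long and kept C and A of the anticodon. In Phe GAA 1, 37292 of 39709 reads (93.9%) were 33 nt long and stopped directly before the anticodon, and 5.60% ended at 21 nt. Tyr GTA 1 was close to Leu CAA 1, with 66.0% of its 25062 reads at 36 nt and 17.8% at 35 nt, which keep 2 and 1 anticodon bases, and 6.31% at 32 nt.

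His GTG 1 was ragged by comparison. Its leading end at 31 nt, which lies 1 base before the Asp site, held 46.3% of 159699 reads, and further ends at 29, 30, 32, 33 and 34 nt held between 5.08% and 13.6% each, with 10.4% at 16 nt. Gln CTG 1, with 13312 reads, had no end above 24.7% and 6 ends above 5%, at 31, 33, 34, 35, 36 and 39 nt. Met CAT 1, whose label does not separate the initiator from the elongator tRNA, had its leading end at 19 nt with 33.2% of 34992 reads. Its ends at 15, 16 and 20 nt held 7.36%, 7.28% and 10.4%, and its long ends were those before T33 with 18.7% and before the anticodon with 6.804%.

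Ser TGA 1 and Pro TGG 1 lay at the short end. Of the 79086 reads of Ser TGA 1, 25.6% ended at 16 nt, 26.6% at 17 nt, 28.995% at 18 nt and 11.9% at 19 nt, and its trunk did not reach the anticodon. The long Ser fragments came mainly from another tRNA, since Ser GCT 3 ended at 36 nt in 39.5%, at 34 nt in 25.1% and at 35 nt in 21.2% of its 53108 reads. Pro TGG 1 was divided between 16 nt (33.3%), 17 nt (12.7%), 24 nt (12.7%) and 26 nt (25.6%) in 31415 reads.

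**Figure D2:**
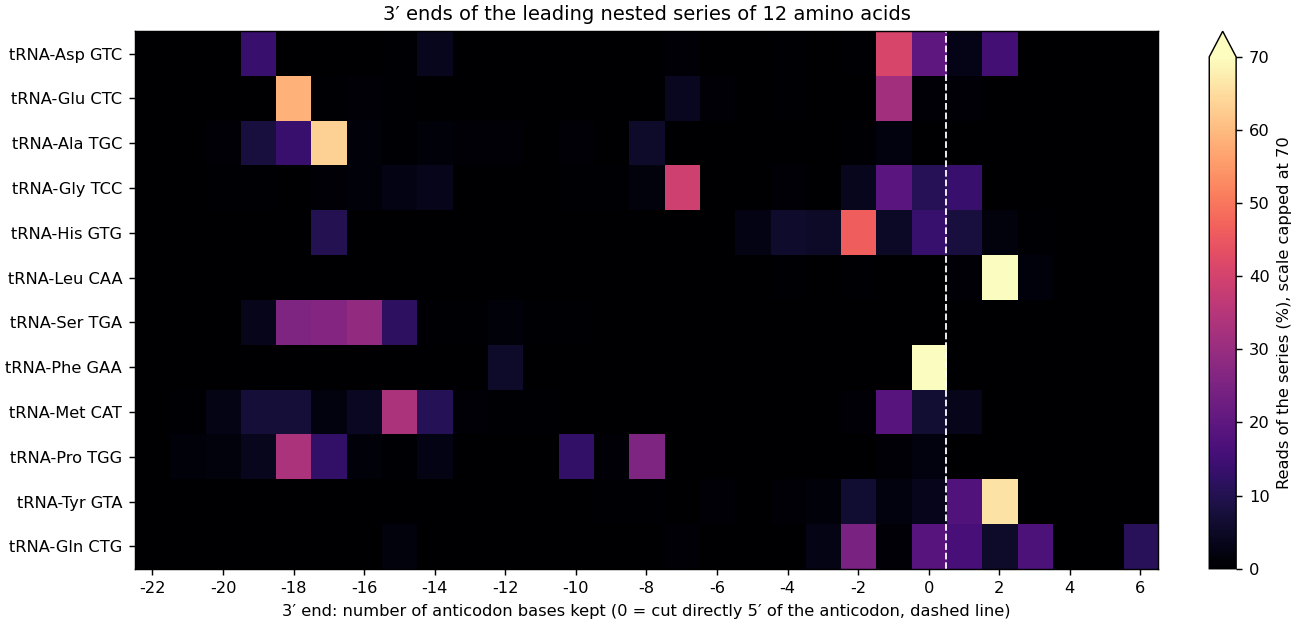
The share of each leading series' reads (colour, percent, capped at 70) by 3′ end, given as the number of anticodon bases kept, with series ordered by reads. The dashed line marks the 5′ edge of the anticodon; Leu CAA 1 keeps 2 bases in 96.6% of reads, Phe GAA 1 keeps 0 in 93.9%, and Glu CTC 1 and Ala TGC 1 end mostly in the D loop.

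Over all series with a located anticodon, 2428512 long reads could be placed, 96.4% of the reads of 30 nt or more. The length limit of 30 nt and the thin list above 35 nt leave only a few bases around the anticodon where such a read can end, so the values give the order of the ends within that window. The end before T33 (-1) held 45.5% of the placed reads (45.4% to 45.5%), the end before the anticodon (0) held 21.6%, and the ends inside the anticodon held 6.77% after its first base and 17.4% after its second. The end at -2 held 6.47% and the end after the third anticodon base 0.424%, which is the place where the list thins out. The lead of the T33 end rested on the 2 most abundant tRNAs. Without Asp it was 38.8%, and without Asp and Glu it was 18.1%, against 23.0% at 0, 20.6% at 2, 18.5% at -2 and 13.8% at 1.

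Counted by series, the end before T33 was again the most frequent. Of 47 series with at least 1000 long reads, the leading long end was -1 in 18, 0 in 9, -2 in 9, 2 in 5 and 1 in 4, with 1 series at -3 and 1 at 3. Some of these are later starts on the same tRNA, and among the 34 that begin at position 0 or 1 the end was -1 in 9, 0 in 8 and -2 in 6. Within an amino acid the end was often sharp. The end before T33 held 93.3% of placed long Glu reads (93.2% to 93.4%), 80.4% of Ala and 66.3% of Met reads. The end after the second anticodon base held 90.7% of Leu and 54.5% of Tyr reads, and the end before the anticodon 99.5% of Phe reads. Reads of tRNA-Pro were divided between -2 with 36.4% and 0 with 36.01%, and those of tRNA-His between -2 with 39.3% and 0 with 29.8%.

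**Figure D3:**
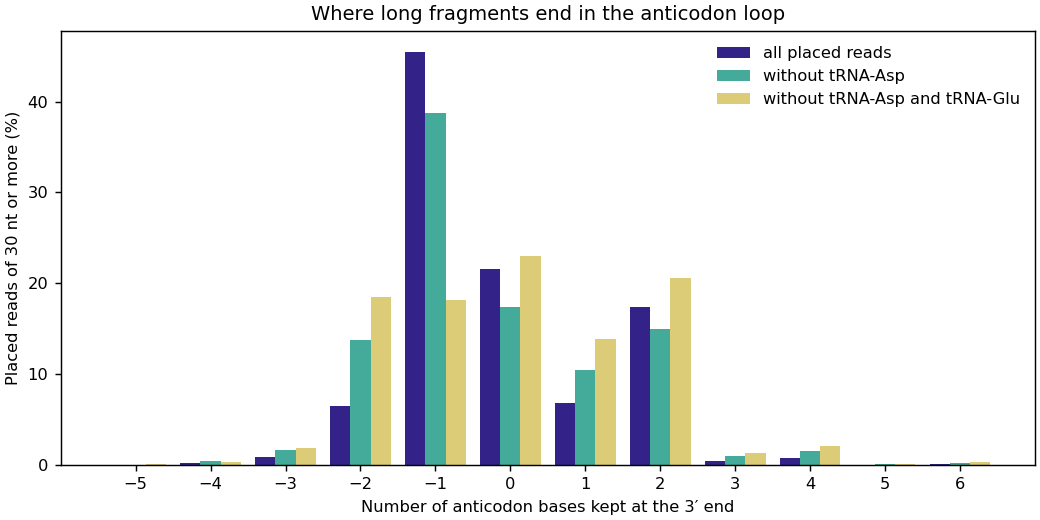
Placed reads of 30 nt or more (percent) by the number of anticodon bases kept at their 3′ end, for all tRNAs, without tRNA-Asp, and without tRNA-Asp and tRNA-Glu. The bar at -1 is 45.5%, 38.8% and 18.1% in these 3 sets.

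Starts were searched only at positions 0 to 3, so how varied they were cannot be compared with the ends. A fragment was placed by the conserved bases of mature positions 8 to 14 (T, purine, any base, pyrimidine, 2 of any kind, A), which gives its distance from the first base of the tRNA. By this rule 83.0% of the reads began at position 1, 2.91% at position 2 and 1.6% at position 3. Long reads began at position 1 more often (87.5%) than short reads (78.8%) or reads of 21 to 29 nt (75.5%). The rule does not reach starts after position 3, such as the 34733 reads from start 4 of the leading Glu tRNA. Fragments that do not reach position 14 and tRNAs without these bases also stayed unplaced. The rule can also match inner bases. A Gly GCC series of 2590 reads was placed at position 2, although it lies further inside the trunk of a longer Gly GCC series. How many reads were misplaced in this way was not counted.

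The starts of the leading Glu tRNA were more varied than those of the leading Asp tRNA. Its fragments that end before T33 began mainly at 4 neighbouring bases, and these 4 are shown with the last 3 bases, which they share, in capitals.
Glu CTC start 1: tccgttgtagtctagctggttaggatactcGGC
Glu CTC start 2: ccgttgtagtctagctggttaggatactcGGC
Glu CTC start 3: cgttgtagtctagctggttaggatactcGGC
Glu CTC start 4: gttgtagtctagctggttaggatactcGGC
These had 158963, 33303, 54183 and 29757 reads, and the same end had 2370 reads from start 5. The short fragments with the 16-nt end began mainly at the first base, with 294518 reads from start 1, 54895 from start 2, 4555 from start 3 and 908 from start 4. From starts 3 and 4 a fragment with that end is 14 or 13 nt long, and the library is labelled from 13 nt on, so the part of this size limit in the low values was not tested. The end before T33 held 88.5% of the reads from start 3 and 85.7% of those from start 4, but 31.7% from start 1 and 35.95% from start 2. Over all lengths, starts 1 to 4 held 71.3%, 13.2%, 8.69% and 4.93% of the reads on this tRNA. For the leading Asp tRNA, start 1 held 99.3% of the reads.

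**Figure D4:**
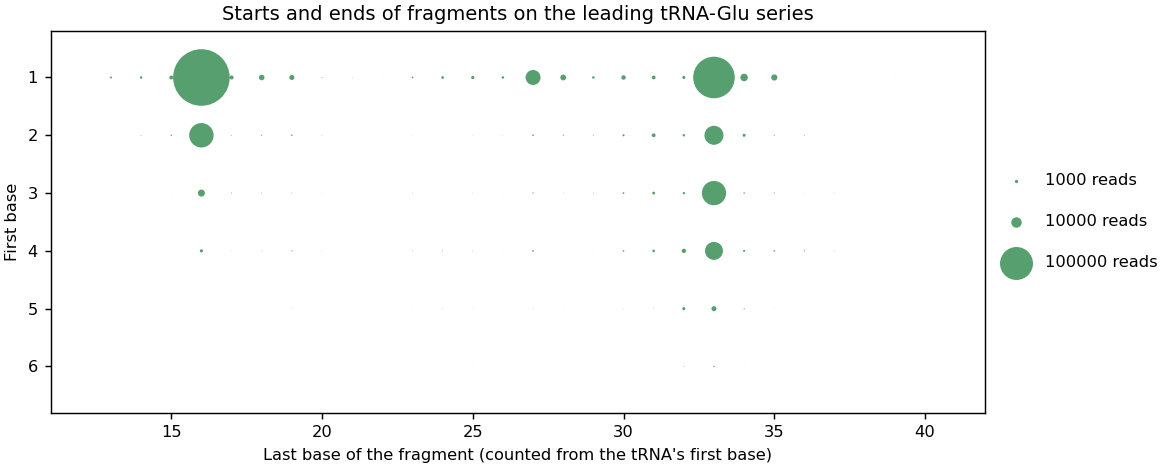
Reads (area of the circles) on the leading tRNA-Glu by first base (vertical axis, 1 at the top) and last base (horizontal axis), both counted from the first base of the tRNA. The column at base 33 holds circles for starts 1 to 4 (158963, 33303, 54183 and 29757 reads), and at base 16 the largest are starts 1 and 2 (294518 and 54895 reads).

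Met CAT 1 showed a like difference. Start 2 held 14.1% of the reads on its tRNA, and 88.5% of those ended before T33, against 18.7% of the reads from start 1. In the leading His tRNA, start 2 held 13.5% of the reads and had the same leading end as start 1.

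Fragments of tRNA-His also had starts in front of position 1. In eukaryotes and bacteria, mature tRNA-His is known for an additional 5′ guanosine. His GTG 2 begins with such a base by the position rule, at position 0, and held 136955 reads, 36.6% of all His reads. It ended at 20 nt in 41.6%, at 35 nt in 27.7%, at 39 nt in 12.1%, at 34 nt in 8.13% and at 33 nt in 5.52% of its reads. Almost all reads of the library that start at position 0 (138445 reads, 2.79%) were of tRNA-His. In front of His GTG 1 an added G was found in 0 reads and an added T in 189. Nuclear and organellar tRNAs were not separated, so these His series need not come from the same genome. Which mismatches or added bases the mapping allowed is not given in the sources used here, so an added base that the genome lacks may have been left out of the list.

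Fragments that hold the T arm were rare. The T-arm sequence (G, T, T, C, purine, A, any base, pyrimidine, C, at positions 53 to 61, searched on the listed strand) was held by 2357 sequences with 48180 reads, 0.972% of the library. A fragment had to span all these positions, so short fragments of the 3′ side and tRNAs with another T-arm sequence are not in this count. In tRNA-His, for example, it took in 43 reads, while the 3′-side series His GTG 7 held 4761. The trunk of that series lacks the T-arm sequence, and 91.0% of its reads were 15 nt long and also too short for the count. The most abundant of these, of tRNA-Thr and tRNA-Met, are shown with the T-arm bases in capitals.
T-arm fragment Thr TGT: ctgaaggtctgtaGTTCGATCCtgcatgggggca
T-arm fragment Met CAT: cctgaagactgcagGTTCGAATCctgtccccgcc
They had 3688 and 2947 reads and spanned positions 40 to 73 and 39 to 72. Most T-arm reads, 53.3%, began at position 39 or 40, where the anticodon loop passes into the 3′ strand of its stem. They ended at position 73, the last encoded base, in 40.5% and at position 72 in 30.4%. A start before position 39 with an end at position 73 gives at least 36 nt, where the list thins out. Positions before the T arm do not hold for tRNAs with a long variable arm, such as those of Leu and Ser and some of Tyr.

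Few of these fragments carried the CCA tail. Only 8474 T-arm reads went past position 73, and in 48.9% of them the additional bases were C, CC or CCA. The whole tail was found in 132 reads, 0.274% of T-arm reads (0.229% to 0.325%). A fragment from the anticodon to the end of the tail is longer than the longest listed length. From position 39 or 40, where most T-arm reads began, a fragment with the whole tail has 38 or 37 nt. The list holds no sequence of 38 nt and 1 of 37 nt. From position 39, any end past position 73 gives at least 36 nt, where the list thins out. How reads with a tail that the genome lacks were mapped is not given in the sources used here. The part of these limits in the shares of the starts, of the ends and of the tail was not tested.

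Fragments of tRNA-Thr made up 39.8% of T-arm reads, those of tRNA-Met 10.4% and those of tRNA-Val 8.08%, against 1.87% for tRNA-Asp. The T-arm share within an amino acid was 86.3% for Thr, 63.3% for Lys and 51.2% for Trp, but 0.0500% for Asp and 0.00116% for Ala. These amino acids were chosen after their values were seen. Phe GAA 2, of which most reads are too short for the count, begins at position 39. It had 15651 reads, 26.3% of all Phe reads, and 59.1% of them were 16 nt long and stopped at position 54, inside the T-arm sequence.

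Isoacceptors, tRNAs that carry the same amino acid with different anticodons, were set beside each other for the 14 amino acids with at least 2 listed anticodons. A single anticodon held at least 90% of the reads in 5 of them (Asp, Cys, Glu, Ile and Thr), and Leu joined them among long fragments. The second anticodon had only 30 reads in Asp and 1 in Cys, and Ile had 845 reads in all. A short fragment can match more than 1 isoacceptor. A total of 567 sequences with 2.76% of the reads were contained in a longer listed fragment under another anticodon of the same amino acid. A further 104, with 0.0270% of the reads, were contained only in a longer fragment of another amino acid. Both kinds together held 5.58% of short reads and 0.402% of long reads. The rule sees only listed fragments. A fragment whose longer form under another anticodon is not listed was kept as unshared, and such fragments were not counted. Without both kinds the same 5 amino acids were dominated by 1 anticodon, and the leading anticodon changed in none of the 14. Among long fragments alone it changed in 5, which were Arg, Gln, Pro, Ser and Val.

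In the Glu pair, CTC held 90.1% of the reads and 97.3% of the long reads, and TTC held the rest, with 82.4% of its own reads at 20 nt or less. The 3 Gly anticodons TCC, GCC and CCC held 77.0%, 21.8% and 1.14%, and GCC held 31.0% of the long reads. In Leu, CAA held 85.6% of all reads and 93.0% of the long reads. In each of these 3 amino acids the leading anticodon was the same at all lengths and at 30 nt or more.

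In Ala, TGC held 49.4%, CGC 44.2% and AGC 6.43% of the reads. The AGC share depended on shared fragments. Of its reads, 79.4% were in fragments that a longer fragment of another isoacceptor contains, and without such fragments it was 1.40%. AGC had only 7 reads of 30 nt or more, so TGC and CGC fragments that AGC shares could stay unmarked. The label changes within 1 series, since the prefixes of Ala TGC 1 with 13 and 14 nt are listed under AGC and those of 15 nt or more under TGC. Among the few long Ala reads, TGC held 69.96%, CGC 29.99% and AGC 0.0519%.

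In Ser, TGA held 37.96%, GCT 26.5%, CGA 25.0%, AGA 7.90% and GGA 2.60% of the reads. The CGA share came mostly from 1 fragment, the 17-nt prefix of Ser TGA 2 with 62437 reads, and it was 2.77% without shared fragments. Among long Ser reads GCT held 83.1%, GGA 10.7% and TGA 4.23%. In Pro, TGG held 47.7%, CGG 33.3% and AGG 18.98%, and without shared fragments AGG held 2.45%. Among long Pro reads CGG led with 57.3%. In Gln, CTG held 61.3% of all reads and TTG 50.8% of the long reads.

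The reads of an anticodon were set beside its annotated nuclear tRNA genes, 651 genes with 48 anticodons on chromosomes 1 to 12 of a Japonica assembly (ASM3414082v1, RefSeq). The cultivar of the library may differ from it in gene number, and fragments of organellar tRNAs were not separated. The leading anticodon also had most genes, ties included, in 8 of the 14 amino acids, and did not in 6 (Ala, Arg, Gln, Gly, Pro and Ser). In Gly, TCC held 77.0% of the reads with 10 genes, against 26 genes for GCC. In Ala, AGC held 6.43% of the reads with 19 genes, against 10 genes for TGC and 11 for CGC. In Glu, CTC held 90.1% of the reads with 26 genes, against 10 for TTC. Over the 48 anticodons Spearman's rho of reads and genes was 0.34, given as a description because anticodons share 1 library. Val GAC, with 5808 reads, and Asp ATC, with 30, had no annotated nuclear gene.

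**Figure D5:**
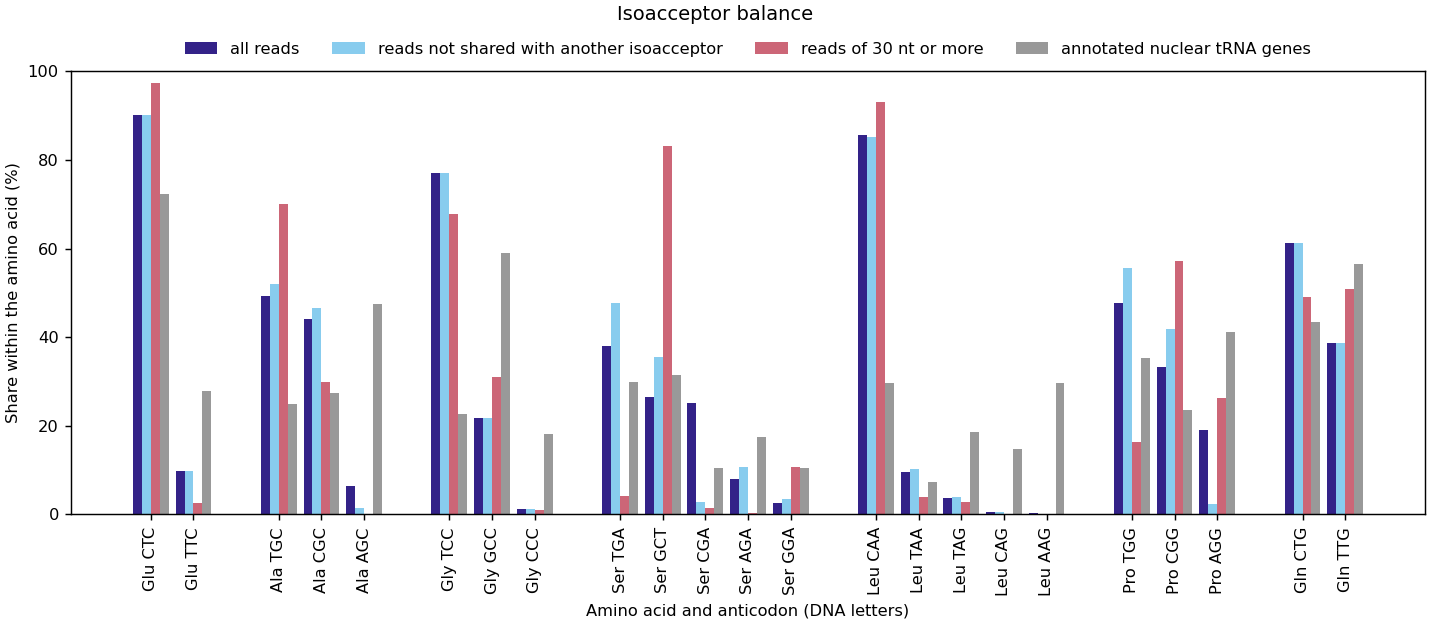
Shares within an amino acid (percent) for each anticodon of 7 amino acids: all reads, reads in fragments not contained in a longer fragment under another anticodon, reads of 30 nt or more, and annotated nuclear tRNA genes. Ser GCT is at 26.5% of all and 83.1% of long reads, and Gly TCC holds 77.0% of the reads.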

How the data were processed

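Small RNAs were sequenced from 1 library per stage. Per the submitters' processing notes Bowtie 1.1.2 was used; no source used here gives what it was run against, its options or any trimming. The deposited lists give an anticodon, a fragment sequence and a number. The authors deposited whole-number read counts per distinct sequence for BCP and UNM, with no normalization, and BCP summed to 4958412. The number the authors deposited for TCP was treated as a score and not as reads, and that list, like the UNM list, served only for which sequences it holds and to extend trunks. The 4 BCP sequences under 13 nt, with 127 reads, were kept.

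Anticodons were translated to amino acids. Trunks were extended while at least 10 reads held the longer prefix, and, to find the anticodon, with listed fragments that overlapped their last 15 bases, up to 45 nt. The anticodon was accepted where T and the anticodon occurred once with its first base at 30 to 39. The steps were tested on simulated data. Shares have exact Clopper-Pearson 95% intervals, and without molecular identifiers reads cannot be counted as separate molecules. No test was made, since a stage has 1 library. Python 3.11.15, pandas 2.3.3 and scipy 1.17.1 were used.

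The members, the size classes and the lists were chosen with earlier results of these data known. The text names the 10 most abundant sequences, every amino acid with at least 1% of reads and its leading series, 3′ ends with at least 5% of a leading series, anticodons with at least 1% of reads and the lowest 3 amino acids; other items were chosen after their values were seen. The rules for the anticodon, the start and the T arm were also chosen after the data were seen. Alternatives were a minimum of 10 reads, a minimum of 13 nt, the list without its 10 most abundant sequences, each sequence counted once, other length limits, a 16-base shared start, and the isoacceptor sets.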

Additional observations from a re-analysis of the deposited data

How the results depend on the processing

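Of 35 alternatives, 16 left a value within its counting interval or a count within 1.5 times, and 19 moved it. The median share of the leading 3′ end has no counting interval. Every change of it counted as moved, even that from 43.5496% to 43.5502%. With only sequences of at least 10 reads, the share of reads at 30 nt or more was 50.96% against 50.79%, that at 20 nt or less 41.28% against 41.32%, the Asp share 36.5% and the median share of the leading 3′ end 43.55%. Without the 10 most abundant sequences these were 42.1%, 41.4%, 8.94% for Asp and 38.5%, and Gly then had most reads with 18.05%. With each distinct sequence counted once, they were 19.9% long, 48.1% short and 3.19% for Asp, 0 amino acids were mostly long, against 10, and 1 anticodon held at least 90% in 2 amino acids, against 5. A limit of 28 nt gave 52.2% long, a limit of 18 nt 36.5% short, and a shared start of 16 bases a median leading end of 46.9%. The share of placed long reads that end before T33, 45.5%, was 29.4% without the 10 most abundant sequences, 38.8% without Asp and 46.8% among fragments of 30 to 35 nt; these were chosen after seeing the data. Counting sequences in place of reads weighs single reads like abundant fragments; the causes of the other moves were not tested.

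No paired analysis was possible because each stage has 1 library and no result comes from a test. The depth limits counting error only, and variation between libraries was not measured.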
